A study of Mus musculus with 16 samples.

Results

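T-macrophage barcodes, droplets whose single cell barcode held transcripts of both a T cell and a macrophage, were 3540 of the 99357 barcodes kept from CD45-selected mouse tumour cells. Kept barcodes had 200 or more genes and no more than 10% of their UMIs (unique molecular identifiers, each counting 1 captured transcript) from mitochondrial genes. It was a T-macrophage barcode when it held at least 2 UMIs of the CD3 genes Cd3d, Cd3e and Cd3g together and at least 10 UMIs of the complement genes C1qa, C1qb and C1qc together. The files held 116552 barcodes in all. For comparison, 20356 single T cell barcodes had at least 2 CD3 UMIs and at most 2 C1q UMIs, and 27418 single macrophage barcodes had at least 10 C1q UMIs and no CD3 UMI. The barcodes were chosen by the measured levels of those 6 genes, so these levels are a description. Their rows stayed in the fits over all genes, and nothing is read from them.

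The tumours grew in C57BL/6J mice that had received 1000000 cells of the Bro4.1 line of the B16 melanoma under the skin, either control cells or B2m-null cells, which lack the light chain of MHC class I. Each mouse was given 100 µg of an anti-CD40 antibody or of a rat IgG2a isotype control by intraperitoneal injection on days 6, 9 and 12, and tumours were taken on day 14. Minced, enzyme-digested tumours were enriched for CD45-positive cells on magnetic columns, stained with 1 hashtag antibody per mouse, pooled by group and run as 3' single-cell libraries. The groups were control tumours with isotype (2 pools), control tumours with anti-CD40 (1 pool on 2 lanes that are technical replicates), B2m-null tumours with isotype (2 pools) and B2m-null tumours with anti-CD40 (2 pools). The design places the B2m loss in the implanted cells, while the sample labels give the same difference as the mouse's genotype, C57BL/6 WT or B2M KO. Loading was set for a calculated doublet rate under 5% after hashtags are read, per the labels.

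CD8 T cells recognise antigen on MHC class I, and T cells in contact with macrophages can deliver interferon gamma (Ifng) to them. Interferon gamma acts on macrophages to induce Cxcl9, guanylate-binding proteins and, with other signals, the inducible nitric oxide synthase Nos2. In droplet libraries a barcode with transcripts of a pair of cell types can come from a droplet that caught both cells, from cells that stayed attached, from a cell that took up another's material, or from free RNA, and the files do not record which.

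The 8 lanes held 43.6 to 91.9 times 1000000 UMIs in kept barcodes, with a median of 1792 to 5103 UMIs per barcode. Up to 92 barcode sequences were shared between a pair of lanes, at most 0.623% of the smaller lane, and no T-macrophage barcode was among them. Hashtag staining was weak in B2m-null anti-CD40 pool 1 and B2m-null isotype pool 1, where 73.0% and 53.6% of single macrophage barcodes carried no hashtag above background, against 12.0% to 23.4% in the other 5 pools. In the control anti-CD40 pool 17277 barcodes carried only the hashtag of 1 mouse and 1300 only that of the other. The hashtag of the other mouse lay close to its background, a median of 190 counts in lane 1 and 32 in lane 2. It led 3601 and 3841 barcodes in these lanes, at a median of 346.5 and 55 counts. The first mouse's hashtag had 357 and 1089 in the barcodes it led. The hashtag of the other mouse thus lay below the 444.3 and 91.35 counts needed to call it. The 1300 thus depends on that threshold and is not the share of that mouse's cells. The 2 lanes of that pool were summed.

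The label was checked against marker genes in summed profiles, in CPM (UMIs of a gene per 1000000 UMIs of the profile). The 6 genes of the choice were left out of these sums. The summed level of the other 12 T cell markers was 1291 ± 222 (SD, n = 7 pools) in T-macrophage barcodes, 3852 ± 1481 in single T cell barcodes and 30.6 ± 7.89 in single macrophage barcodes. The summed level of the other 12 macrophage markers was 11959 ± 2522 in T-macrophage barcodes, 17556 ± 2879 in single macrophage barcodes and 1758 ± 446 in single T cell barcodes. In each of the 7 pools both sums lay between those of the 2 single classes. Trac, the constant region of the T cell receptor alpha chain, and Adgre1, the macrophage surface protein F4/80, were not used for the choice. Trac lay between 132 and 227 CPM in T-macrophage barcodes, against 294 to 751 in single T cell barcodes and 1.11 to 5.16 in single macrophage barcodes. Adgre1 lay between 184 and 345 in T-macrophage barcodes, against 13.7 to 38.7 in single T cell barcodes and 403 to 612 in single macrophage barcodes. For both genes the 3 ranges did not overlap.

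T-macrophage barcodes were large. Their median was 10502.5 UMIs and 3200.5 genes, with a median of 6 CD3 UMIs (range 2 to 102) and 39 C1q UMIs (range 10 to 423). By pool the median UMI count was 11385 and 12173.5 in control isotype, 8682 in control anti-CD40, 9812 and 14825 in B2m-null isotype, and 9697 and 12317.5 in B2m-null anti-CD40. That was 1.47 to 1.96 times the median of single macrophage barcodes and 3.07 to 4.98 times that of single T cell barcodes of the same pool. Against the sum of the 2 single medians it was 1.10 to 1.25 times as high in the 7 pools. The minimum of 10 C1q and 2 CD3 UMIs favours deep barcodes, so no test was made. Hashtag counts did not exceed the sum: their median per T-macrophage barcode was 0.676 to 0.990 times the sum of the single medians.

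**Figure D1:**
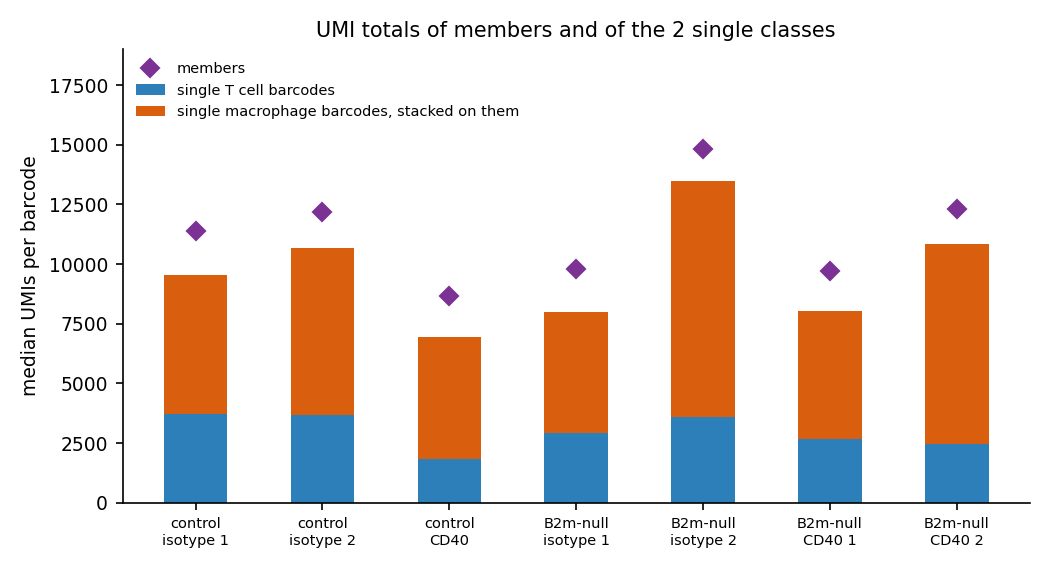
Median UMIs per barcode in each of the 7 pools: diamonds are T-macrophage barcodes (members) and stacked bars the medians of single T cell (blue) and single macrophage (orange) barcodes. In each pool the diamond lies above the top of the stack, by a factor of 1.10 to 1.25.

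The values changed steadily across the thresholds. Barcodes with at least 10 C1q UMIs had a median of 7245 UMIs where they held 1 CD3 UMI (1227 barcodes, just outside), 7607 with 2 CD3 UMIs (556 barcodes, just inside) and 11270.5 with 3 or more (2984 barcodes). Of these, 19.7%, 26.3% and 31.3% carried 2 hashtags. On the C1q side, barcodes with 5 to 9 C1q UMIs (606, outside) had a median of 6260 UMIs, those with 10 to 14 (438, inside) 6815.5, and those with 15 or more (3102) 11195.5.

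T-macrophage barcodes made up 3.83% and 3.02% of kept barcodes in the control isotype pools (mean 3.42% ± 0.569, SD, n = 2) and 4.64% in the control anti-CD40 pool, whose lanes gave 4.94% and 4.35%. They made up 1.19% and 1.97% in the B2m-null isotype pools (1.58% ± 0.553, n = 2) and 3.54% and 5.33% in the B2m-null anti-CD40 pools (4.44% ± 1.27, n = 2). In both tumour types each anti-CD40 pool was above each isotype pool, but the exact two-sided permutation p of 0.333 is the smallest that these numbers of pools allow. The 1-hashtag barcodes can be given to single mice. By mouse, T-macrophage barcodes were 5.29% ± 2.48 (n = 4, from 3.27% to 8.91%) of 1-hashtag barcodes in B2m-null anti-CD40 tumours and 2.11% ± 0.656 (n = 5, from 1.13% to 2.71%) in B2m-null isotype tumours. Those mice did not overlap (exact permutation p = 0.00794, the smallest possible), though mice of 1 pool share a lane. This denominator depends on staining: in the weakly stained B2m-null anti-CD40 pool 1, 45.1% of T-macrophage, 17.4% of single T cell and 24.6% of single macrophage barcodes carried 1 hashtag. Its mice stood at 4.66% and 8.91%, against 3.54% for the whole pool, and the part of staining in the values by mouse was not tested. Without the weakly stained pools 2 mice remained in each group, at 4.33% and 3.27% under anti-CD40 and 1.80% and 2.71% under isotype. In control tumours the mice overlapped, with 4.60% ± 1.17 (n = 2) under anti-CD40 and 3.63% ± 1.64 (n = 5) under isotype (exact permutation p = 0.524). These values depend on the hashtag threshold too. The highest isotype mouse, at 6.36%, had 519 barcodes, while its hashtag led 4680 at a median of 24 counts, under its threshold of 54.7. The lower anti-CD40 mouse, at 3.77%, is that of the hashtag close to its background.

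**Figure D2:**
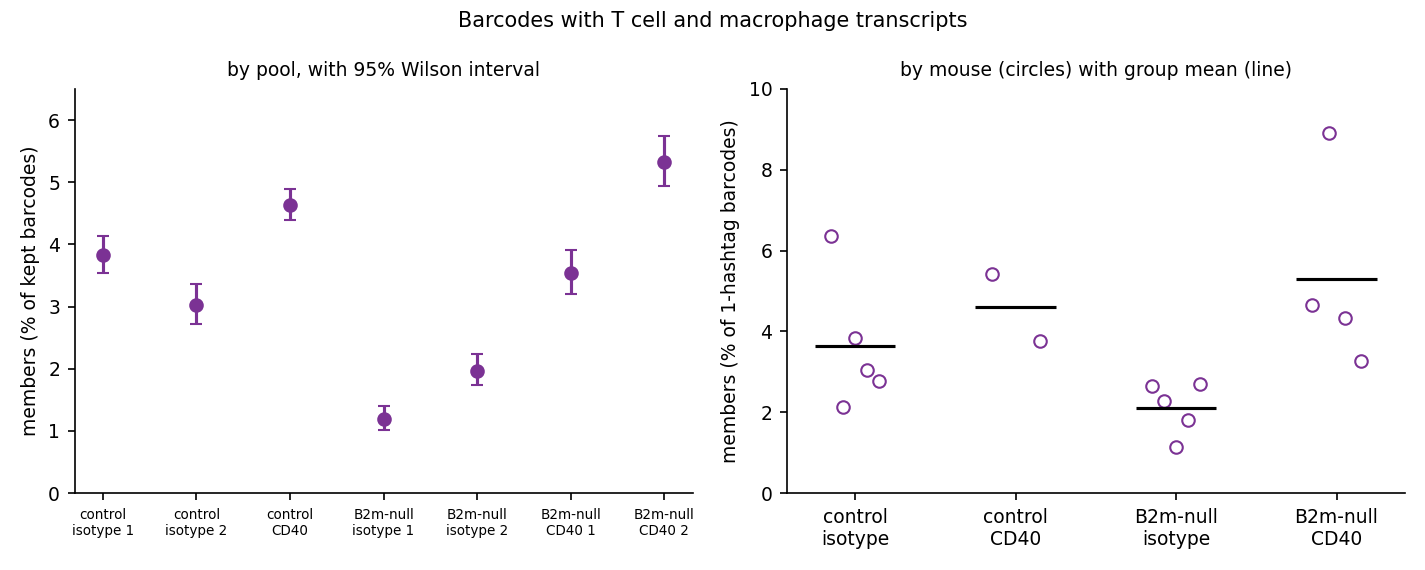
T-macrophage barcodes (members) as a percent of kept barcodes in each pool with 95% Wilson intervals (left), and as a percent of 1-hashtag barcodes in each mouse with the group mean as a line (right). The 4 mice of the B2m-null anti-CD40 group, from 3.27% to 8.91%, lie above the 5 of B2m-null isotype, from 1.13% to 2.71%.

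The share of barcodes with at least 2 CD3 UMIs was also higher under anti-CD40. This share and that of barcodes with at least 10 C1q UMIs include the T-macrophage barcodes. Both rest on the genes of the choice and are a description. Barcodes with at least 2 CD3 UMIs were 17.4% ± 2.62 of kept barcodes in control isotype, 37.0% in control anti-CD40, 10.2% ± 5.19 in B2m-null isotype and 35.3% ± 15.1 in B2m-null anti-CD40. Barcodes with at least 10 C1q UMIs lay closer together, at 36.5%, 25.6%, 34.1% and 34.6% in the same order. As a share of CD3-positive barcodes, T-macrophage barcodes were 19.7% in control isotype, 12.5% in control anti-CD40, 16.2% in B2m-null isotype and 13.0% in B2m-null anti-CD40. As a share of C1q-positive barcodes they were 9.66%, 18.1%, 4.55% and 12.7%. Whether the number of T cells accounts for the higher share under anti-CD40 was not tested.

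Depth differed between lanes, so each barcode with at least 2000 UMIs was also thinned to 2000 and chosen with 1 CD3 and 5 C1q UMIs, which left out 2283 to 7401 shallower barcodes per lane. The share was then 2.78% and 2.33% in control isotype, 6.40% and 8.15% in the control anti-CD40 lanes, 1.56% and 1.02% in B2m-null isotype, and 3.40% and 4.74% in B2m-null anti-CD40. The anti-CD40 lanes again lay above the isotype lanes of the same tumour type. The cut changed the denominator unevenly. In the control anti-CD40 lanes 5776 and 7401 barcodes were left out and 7091 and 6222 kept. In control isotype 5173 and 2678 were left out and 10479 and 7978 kept. The median single T cell barcode of control anti-CD40 held 1827.5 UMIs, below the cut. The part of the left-out barcodes in these shares was not tested.

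T-macrophage barcodes were fewer than the product of the CD3-positive and C1q-positive shares would give. The ratio of observed to product was 0.620 and 0.475 in control isotype, 0.490 in control anti-CD40, 0.606 and 0.373 in B2m-null isotype, and 0.460 and 0.306 in B2m-null anti-CD40 (mean 0.476 ± 0.114, n = 7). The same ratio was 0.346 ± 0.112 for natural killer (NK) cell and macrophage genes, 0.259 ± 0.123 for melanoma and T cell genes, 0.686 ± 0.210 for B cell and macrophage genes, 0.804 ± 0.346 for B cell and T cell genes and 0.676 ± 0.347 for neutrophil and T cell genes. The ratios are a description and nothing is read from their order. The first rests on the genes of the choice, each cell type had its own minimum of UMIs, and NK cell barcodes were required to hold no CD3 UMI, which leaves out barcodes that also caught a T cell.

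C1q UMIs were also found in NK cell and B cell barcodes that held no CD3 UMI. Over all lanes, 14.2% of CD3-positive barcodes held at least 10 C1q UMIs (median 2966.5 UMIs), against 11.8% of such NK cell barcodes (median 1944.5 UMIs) and 20.9% of such B cell barcodes (median 2373 UMIs, n = 575). At least 1 C1q UMI was found in 38.2%, 34.5% and 42.8% of these. By pool the share with 10 C1q UMIs was higher in B cell than in CD3-positive barcodes in 6 of 7 pools, and in B2m-null anti-CD40 pool 1 it was 11.8% against 14.4%. NK cell barcodes were below CD3-positive barcodes in 7 of 7 pools. These shares were not tested, and the part of free RNA in them was not tested.

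Each hashtag marks 1 mouse, so a barcode with 2 hashtags carries label from 2 mice. Of T-macrophage barcodes, 50.6% and 43.5% had 2 hashtags in the control isotype pools, 15.1% in control anti-CD40, 22.9% and 37.9% in B2m-null isotype, and 7.65% and 47.3% in B2m-null anti-CD40. The technical-replicate lanes of control anti-CD40 did not agree, at 22.2% in lane 1 and 7.60% in lane 2. The mean was 32.1% ± 16.9 (n = 7 pools), against 5.48% ± 2.56 in single T cell barcodes and 10.9% ± 5.06 in single macrophage barcodes. T-macrophage barcodes were higher in 7 of 7 pools, by 26.7 percentage points (6.33 to 41.8) over single T cells and 21.2 (5.17 to 35.1) over single macrophages (exact sign-flip permutation p = 0.0156 for both, the smallest possible). Without the 2 weakly stained pools the differences were 32.7 and 25.99 points, in 5 of 5 pools (exact permutation p = 0.0625, the smallest possible).

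The result turned on how a hashtag is called. Background differed between hashtags of 1 lane, for example medians of 6, 297 and 35 counts in control isotype pool 1, and each hashtag was set against its own background. When a second hashtag was instead counted wherever it held at least 20% of a barcode's hashtag counts, the difference from single T cells was -0.309 points (exact permutation p = 0.906) and that from single macrophages 2.86 points (exact permutation p = 0.141).

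Pairing a T cell and a macrophage of the same lane regardless of mouse gives an expected share of 2-hashtag barcodes among those with any hashtag. Observed and expected were 54.6% and 57.6% in control isotype pool 1, 44.7% and 46.8% in pool 2, and 15.9% and 12.1% in control anti-CD40. They were 31.1% and 66.8% in B2m-null isotype pool 1, 40.6% and 56.0% in pool 2, 14.5% and 45.3% in B2m-null anti-CD40 pool 1, and 48.9% and 43.4% in pool 2. In 5 pools the ratio lay between 0.725 and 1.32, and in the 2 weakly stained pools it was 0.466 and 0.320. The low expected share in control anti-CD40 goes with the hashtag close to its background in that pool, so its ratio depends on the threshold too. Its 2 lanes also differed, with 2 hashtags in 22.2% and 7.60% of all T-macrophage barcodes. The same ratio was 0.564 ± 0.287 for B cell-macrophage barcodes (5 pools), 0.328 ± 0.223 for B cell-T cell barcodes (4 pools) and 0.504 ± 0.0993 for NK-macrophage barcodes (5 pools). It was 0.722 ± 0.421 for neutrophil-T cell barcodes (2 pools) and 1.00 for melanoma-T cell barcodes (1 pool). B2m-null anti-CD40 pool 1 entered the first 3 of these means and B2m-null isotype pool 1 that for NK-macrophage barcodes. The differences between pairs were not tested.

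**Figure D3:**
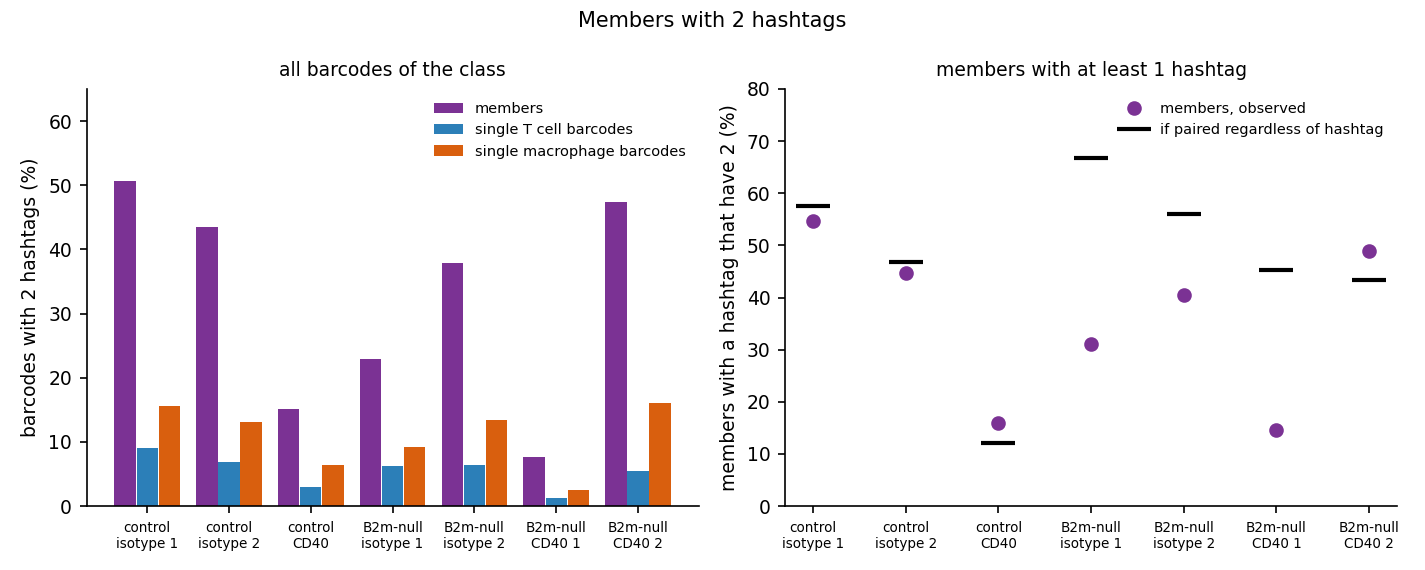
Percent of barcodes with 2 hashtags by pool in T-macrophage barcodes (members) and both single classes (left), and, among T-macrophage barcodes with any hashtag, the observed percent (points) beside that expected from pairing regardless of mouse (lines, right). The 2 weakly stained pools, B2m-null isotype 1 and B2m-null CD40 1, lie farthest below the lines.

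The profile of T-macrophage barcodes was close to a weighted sum of the single profiles of the same pool. Weights fitted by non-negative least squares, without the 6 genes of the choice, were 0.920 to 1.18 for the mean single T cell and 0.904 to 1.19 for the mean single macrophage. A T-macrophage barcode thus held on average 0.986 to 1.14 times the UMIs of 1 of each. The T cell part made up 42.3% and 41.9% of UMIs in control isotype, 26.9% in control anti-CD40, 33.8% and 39.5% in B2m-null isotype, and 32.8% and 21.9% in B2m-null anti-CD40. Across genes, which are not independent replicates, the correlation with the fitted sum was 0.991 to 0.998, against 0.959 to 0.982 with single T cells alone and 0.981 to 0.986 with single macrophages alone.

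Of 8035 genes with a mean of at least 10 CPM, 3 lay above the fitted sum by a median of 1.5-fold or more in the same direction in all 7 pools, 0.0373% of the genes. Il1b, the inflammatory cytokine interleukin 1 beta, had a median log2 ratio of 0.61 (0.23 to 1.26). The coagulation factor gene F10 had 0.62 (0.04 to 0.72) and the uridine phosphorylase gene Upp1 0.61 (0.17 to 0.93). Il1b in T-macrophage barcodes was 556, 252, 83.7, 275, 326, 268 and 244 CPM in the order of pools used above, against 279, 176, 71.0, 179, 135, 188 and 145 in the fitted sum. The excess was thus largest in control isotype pool 1 and B2m-null isotype pool 2. Without either of these pools the count above was 0, and it was 5 without control anti-CD40 or without B2m-null anti-CD40 pool 1.

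4 genes lay below the sum in all 7 pools, 0.0498% of the genes. Hbb-bs, a beta globin of red blood cells, had a median log2 ratio of -3.50, the ribosomal RNA transcript AY036118 -0.999, the synaptotagmin gene Syt4 -0.72 and the resistin-like gene Retnla -0.59. The count below was 2 without control anti-CD40, without B2m-null isotype pool 2 or without B2m-null anti-CD40 pool 1. None of the genes of the fixed lists on interferon gamma, cytotoxicity, T cell receptor response, cell contact, phagocytosis, antigen presentation or heat shock met either rule. The list medians lay between -0.12 for phagocytosis and 0.22 for antigen presentation, beside -0.04 for all 8035 genes. The chemokine Cxcl9 was above the sum in 7 of 7 pools with a median log2 ratio of 0.43, the protease Gzmb in 7 of 7 with 0.45, Ifng in 5 of 7 with 0.48 and Nos2 in 4 of 7 with 0.25.

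**Figure D4:**
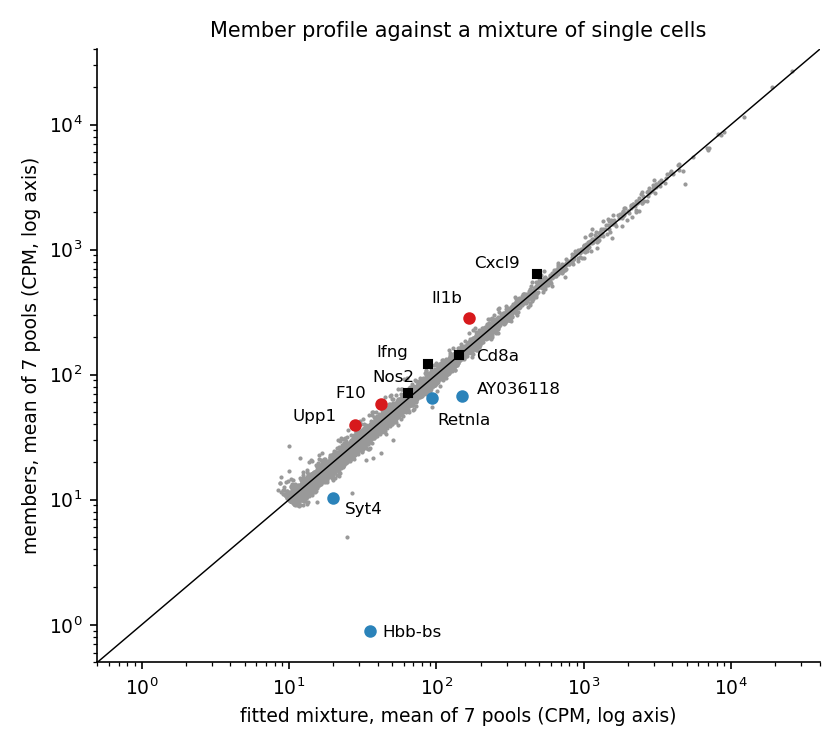
Mean level over the 7 pools of 8035 genes in T-macrophage barcodes (members) against the fitted sum of single T cell and single macrophage profiles, in CPM on log axes, with equality as a line. Red and blue circles are the 3 genes above and 4 below in all pools, and black squares are Ifng, Nos2, Cxcl9 and Cd8a.

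Most co-receptor UMIs of the T cell side were from CD8 genes. CD8 genes (Cd8a and Cd8b1) made up 93.1% ± 3.58 of the UMIs of CD8 genes and Cd4 in T-macrophage barcodes and 93.2% ± 3.56 in single T cell barcodes (n = 7 pools). The difference was -0.0139 percentage points, from -1.96 to 2.59 over pools (exact sign-flip permutation p = 0.969), so neither class was higher throughout. At least 1 CD8 UMI was found in 59.6% and 62.4% of T-macrophage barcodes in control isotype, 74.5% in control anti-CD40, 38.9% and 53.0% in B2m-null isotype, and 80.2% and 71.5% in B2m-null anti-CD40. The UMI share is not a share of barcodes. Over all T-macrophage barcodes 6.64% held Cd4 without a CD8 UMI and 25.3% held neither. In B2m-null isotype pool 1 these were 13.9% and 47.2%. Foxp3, the transcription factor of regulatory T cells, was found in 10.7% and 12.1% in control isotype, 0.977% in control anti-CD40, 11.8% and 13.8% in B2m-null isotype, and 3.69% and 2.67% in B2m-null anti-CD40.

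Ifng and Nos2 were each found in many T-macrophage barcodes. Ifng had a UMI in 42.4% and 40.1% of T-macrophage barcodes in control isotype, 31.6% in control anti-CD40, 15.3% and 22.0% in B2m-null isotype, and 56.2% and 38.7% in B2m-null anti-CD40. Single T cell barcodes ranged from 15.7% to 44.0% and single macrophage barcodes, which should lack Ifng, from 0.436% to 1.36%, at medians of 1827.5 to 3711.5 and 5073 to 9901.5 UMIs. Nos2 had a UMI in 13.9% and 11.2% in control isotype, 27.7% in control anti-CD40, 3.47% and 7.33% in B2m-null isotype, and 44.3% and 36.2% in B2m-null anti-CD40. Single macrophage barcodes ranged from 2.88% to 28.3% and single T cell barcodes from 0.348% to 7.65%.

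Both genes together were found in 6.84% and 5.28% of T-macrophage barcodes in control isotype, 8.88% in control anti-CD40, 0.694% and 3.02% in B2m-null isotype, and 24.8% and 14.8% in B2m-null anti-CD40. The product of the 2 shares gives 5.88%, 4.48%, 8.75%, 0.530%, 1.61%, 24.9% and 14.0% in the same order. The observed share lay above the product in 6 of 7 pools and was not tested. The gap rests on 1 of 144 barcodes in B2m-null isotype pool 1 and on 7 of 232 in pool 2. An excess over the product was not particular to T-macrophage barcodes. In B2m-null anti-CD40 pool 1 it was 4.34% against 3.36% in single T cell and 0.455% against 0.367% in single macrophage barcodes. Single T cell barcodes lay below the product only in control isotype pool 2 and B2m-null anti-CD40 pool 2. Single macrophage barcodes did so only in control isotype pool 1.

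**Figure D5:**
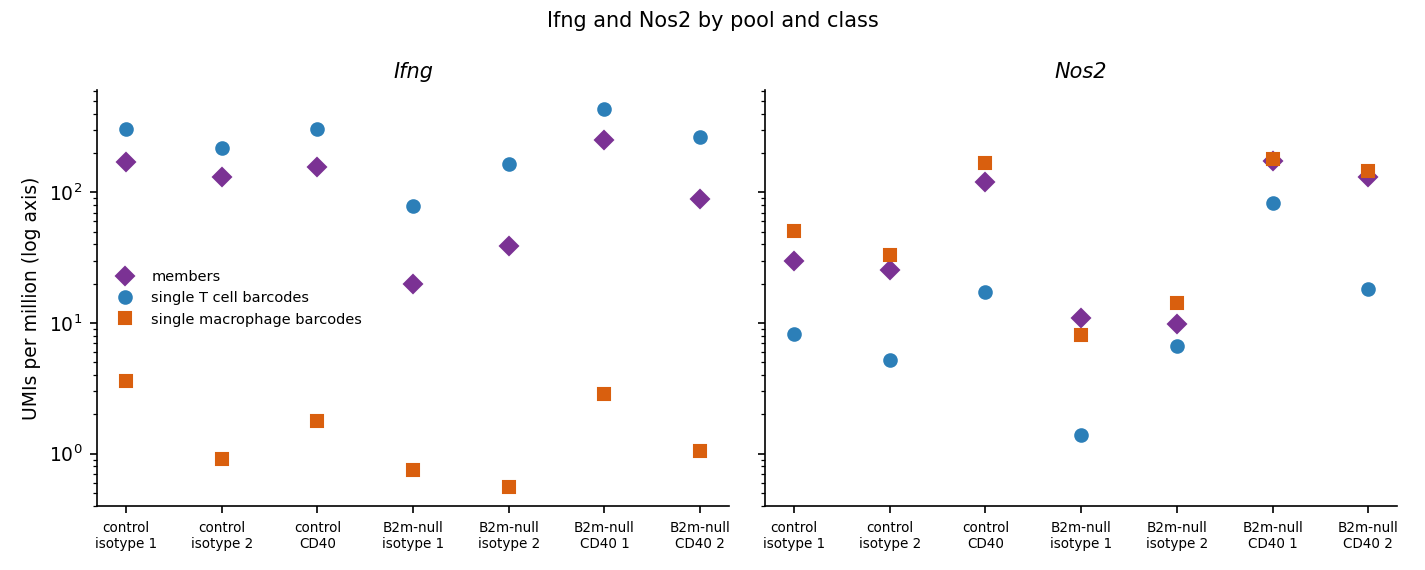
Level of Ifng and Nos2 by pool in summed profiles, in CPM on a log axis, for T-macrophage barcodes (members) and both single classes. For Ifng the T-macrophage barcodes lie between the 2 single classes in all 7 pools, and for Nos2 both anti-CD40 groups lie above the isotype pools of their tumour type.

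Changes with anti-CD40 were tested on UMI counts summed over the T-macrophage barcodes of each pool, with edgeR's quasi-likelihood test over 11779 genes (Benjamini-Hochberg adjusted p under 0.05). The 7 pools of all 4 groups shared 1 estimate of the spread, and the median log2 change of all genes was within 0.02 of 0 in every comparison. The question was what the antibody changed in each tumour type. With sums, fewer cells expressing a gene and less RNA per cell cannot be told apart.

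In control tumours Nos2 rose, while 12 of 16 dendritic cell markers (5 and 6 without control isotype pool 1 or 2) and 2 of 4 regulatory T cell markers fell. Nos2 was 29.8 and 25.5 CPM in T-macrophage barcodes of the isotype pools and 120.8 in the anti-CD40 pool, a log2 change of 2.24 (SE 0.18, edgeR adjusted p = 0.00223). The change was 2.16 in single macrophage barcodes and 1.35, not called, in single T cell barcodes. Over all genes 291 rose (2.47%) and 217 fell (1.84%). H2-M2, a non-classical MHC class I gene, rose from 2.56 and 2.73 to 41.9 CPM (log2 4.10), and the lysozyme gene Lyz1 from 17.3 and 12.1 to 82.5 (2.58). Ccl24, an eosinophil-attracting chemokine of alternatively activated macrophages, fell from 33.1 and 22.3 to 3.27 (-2.98). All 4 were called in each of 8 fits that left out 1 lane. Of these, fits without a B2m-null pool enter this comparison through the shared spread. The anti-CD40 pool was never left out whole, only 1 of its lanes at a time.

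T cell effector genes went both ways in control tumours. Of 14 cytotoxic genes 2 rose and 2 fell, with a median log2 change of -0.96 beside -0.02 for all genes. Gzmk, a granzyme of early effector and memory CD8 cells, rose from 9.73 and 20.03 to 42.99 CPM (log2 1.72), and Fasl, the ligand of the death receptor Fas, rose (0.96). Gzmb fell from 501 and 603 to 258 (-0.97, SE 0.20, edgeR adjusted p = 0.0308) and the pore-forming perforin gene Prf1 from 121 and 211 to 53.3 (-1.50). The chemokine Ccl5 rose from 739 and 836 to 3439 CPM (log2 2.25, SE 0.36, edgeR adjusted p = 0.012). Ccl5 lost its call without either control isotype pool, and Gzmk, Fasl, Gzmb and Prf1 without either B2m-null isotype pool. Gzmb and Fasl also lost it without either control isotype pool, Fasl without anti-CD40 lane 1, Gzmk without control isotype pool 1, and Prf1 without control isotype pool 2 or either anti-CD40 lane. Leaving out either B2m-null anti-CD40 pool gave 3 rises and 6 falls in the list.

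The T cell receptor response and inhibitory receptor lists leaned down in control tumours, with few genes called. Of 20 response genes 2 fell and none rose, of 10 inhibitory receptor genes 1 fell and none rose, and of 4 regulatory T cell markers 2 fell and none rose. Of all genes 1.84% fell. In the response list 18 log2 changes were negative (median -0.40) and in the inhibitory receptor list 8 (-0.23), beside a median of -0.02 over all genes. The costimulatory receptor Tnfrsf4 (OX40) fell by 2.16 on the log2 scale, Tnfrsf9 (4-1BB) by 1.47, Ikzf2 (Helios) by 1.53 and the inhibitory receptor Havcr2 (TIM-3) by 1.08. Foxp3 fell from 9.98 and 13.2 to 1.01 CPM (-3.35). The CD28 ligands Cd80 (-1.28) and Cd86 (-0.87) fell too, the 2 calls among 18 contact and costimulation genes. Of 18 interferon gamma axis genes tested only Nos2 was called. Ifng was 171 and 131 CPM under isotype and 157 under anti-CD40 (log2 0.17, SE 0.47, adjusted p = 0.876), and Cd8a 143, 166 and 157 (0.14). Cxcl9 was 655 and 572 against 1039 (0.88, edgeR adjusted p = 0.0712). With 1 lane left out its change was 0.77 to 1.00, and whether it passed depended on the lane. Tnfrsf4, Foxp3 and Ikzf2 were called in each of the 8 fits that left out 1 lane, while Tnfrsf9 lost its call without either control isotype pool, Cd80 without pool 1, and Cd86 and Havcr2 without either B2m-null isotype pool. Cd86 also lost it without either control isotype pool or anti-CD40 lane 1, and Havcr2 without control isotype pool 2.

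The calls in control tumours rest on 3 pools. They numbered 109 without control isotype pool 1 and 148 without pool 2, 246 and 248 without either B2m-null isotype pool, and 1297 and 1256 without either B2m-null anti-CD40 pool, which enter through the shared spread. By mouse, with 1-hashtag T-macrophage barcodes, 839 genes were called.

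In B2m-null tumours Nos2 and Ifng both rose in T-macrophage barcodes. Nos2 was 10.9 and 9.76 CPM under isotype (17 and 38 UMIs) and 175 and 130.9 under anti-CD40, a log2 change of 4.10 (SE 0.21, edgeR adjusted p = 7.46e-05). Of the 55 isotype UMIs, 63.6% came from 5 barcodes. Ifng was 19.8 and 38.5 under isotype and 252 and 88.5 under anti-CD40 (log2 2.61, SE 0.46, edgeR adjusted p = 0.0158). With 1 lane left out the change of Ifng was 1.72 (without anti-CD40 pool 1) to 3.27 (without isotype pool 2). The same change was 1.66 (edgeR adjusted p = 0.0711) in single T cell barcodes. The groups did not overlap for either gene, and the 2 anti-CD40 pools differed more for Ifng than for Nos2. Over all genes 472 rose (4.01%) and 321 fell (2.73%).

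Of 18 interferon gamma axis genes tested, 12 rose and none fell, with a median log2 change of 1.25 beside 0.00 for all genes. Cxcl9 rose from 170 and 280 to 925 and 810 CPM (log2 2.12), and Cxcl10, another ligand of the receptor CXCR3, rose from 114 and 183 to 771 and 356 (2.08). The guanylate-binding protein genes Gbp2b (3.31) and Gbp2 (1.57), which act against intracellular pathogens, both rose. Gbp2b was 0.640 and 3.08 CPM under isotype and 23.8 and 17.7 under anti-CD40. Its isotype level rests on 13 UMIs in 7 barcodes, 84.6% of them from 5, and its change was 2.91 to 5.15 with 1 lane left out (5.15 without isotype pool 2). In the fits without either B2m-null isotype pool only Nos2 and Cxcl9 of the list kept their calls, 2 genes in each.

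The promoters of these 2 neighbouring genes are shown because both rose and both hold the interferon-stimulated response element. Each runs from 250 bases before to 50 after the annotated start in RefSeq's GRCm38.p6 annotation, on the + strand, at chr3:142594597-142594896 for Gbp2b and chr3:142620413-142620712 for Gbp2. Capitals mark a match to GAAANNGAAA on either strand, which starts at -137 and -59 from the annotated start.
Gbp2b: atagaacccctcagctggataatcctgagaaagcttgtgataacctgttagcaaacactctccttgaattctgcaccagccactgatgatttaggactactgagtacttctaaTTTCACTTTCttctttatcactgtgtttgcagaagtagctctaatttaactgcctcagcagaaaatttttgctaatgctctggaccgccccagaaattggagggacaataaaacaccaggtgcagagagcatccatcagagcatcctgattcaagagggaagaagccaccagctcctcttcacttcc
Gbp2: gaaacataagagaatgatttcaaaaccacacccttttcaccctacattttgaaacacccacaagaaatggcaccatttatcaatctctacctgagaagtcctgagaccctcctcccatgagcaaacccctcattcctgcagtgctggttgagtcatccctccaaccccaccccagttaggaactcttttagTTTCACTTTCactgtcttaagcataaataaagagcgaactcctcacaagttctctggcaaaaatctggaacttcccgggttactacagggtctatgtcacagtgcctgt
This element was found in 3.44% of all 32851 promoters of that length and in 4 of the 9 annotated promoters of the called interferon gamma axis genes that matched. The gamma-activated sequence TTCNNNGAA was found in 8.30% and in 3 of 9. Over the whole interferon gamma axis list, called or not, 6 of 15 matched promoters held the response element and 5 of 15 the gamma-activated sequence. A match is a description of the letters and was not tested as a binding site.

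Both CD8 genes and 5 of 14 cytotoxic genes rose in T-macrophage barcodes of B2m-null tumours. None of the 14 fell (median log2 change 1.42, or 0.36 without B2m-null anti-CD40 pool 1). Nkg7, a granule protein of killer cells, rose from 234 and 232 to 582 and 462 CPM (1.36), Fasl from 6.40 and 7.96 to 22.0 and 18.6 (1.63), and Gzmk from 24.3 and 19.8 to 46.8 and 54.0 (1.44). Gzmb was 232 and 267 under isotype and 269 and 196 under anti-CD40 (log2 0.08, edgeR adjusted p = 0.802). Cd8a rose from 81.9 and 91.4 to 236 and 137 CPM (1.27, edgeR adjusted p = 0.0154) and Cd8b1 by a log2 change of 1.34. Of 12 T cell markers that were not used for the choice 7 rose and none fell. That count was 3 and 4 without control isotype pool 1 or 2, 2 without B2m-null isotype pool 2, and 0 by edgeR without B2m-null isotype pool 1 (8 at an unadjusted p under 0.05). In single T cell barcodes Cd8a rose by 1.54 and Nkg7 by 1.81. Without B2m-null isotype pool 1 or 2, calls fell to 1 and 2 cytotoxic genes by edgeR.

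Some genes of cell contact, antigen presentation and T cell recruitment were also called in B2m-null tumours. Of 18 contact and costimulation genes 4 rose, among them Icam1 (log2 1.13) and both chains of its receptor LFA-1, Itgal (0.88) and Itgb2 (0.85), and none fell. Of 13 antigen presentation genes 7 rose, among them the class I heavy chain H2-K1 (0.79), the immunoproteasome subunit Psmb8 (1.07) and B2m itself (0.82), and edgeR called none of the 13 without either B2m-null isotype pool (11 at an unadjusted p under 0.05 in both fits). B2m stood at 2489 and 2581 CPM under isotype and 3834 and 4010 under anti-CD40, so it was present in these immune cell barcodes. Of 10 recruitment genes 5 rose and none fell, among them the chemokine Cxcl16 (1.03) and its receptor Cxcr6 (1.30). By edgeR, contact genes called numbered 0 without B2m-null isotype pool 1 (7 at an unadjusted p under 0.05) and 1 without pool 2, recruitment genes 1 without either, and the 5 genes named from these 2 lists lost their calls in both fits. Recruitment genes called numbered 8 without B2m-null anti-CD40 pool 1. Of 20 T cell receptor response genes Tnf rose (0.73) and Nr4a3 fell (-1.19).

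Macrophage state genes split evenly in B2m-null tumours, with 5 of 20 up and 5 down. H2-M2 rose by 4.02, Lyz1 by 3.28 and Acod1, which makes itaconate, by 3.41 on the log2 scale. With 1 lane left out these were 3.69 to 4.78, 2.98 to 4.04 and 2.99 to 3.74. The mannose receptor Mrc1 fell from 998 and 917 to 164 and 351 CPM (-1.68) and Ccl24 from 142 and 117 to 15.6 and 20.1 (-2.62). The largest rises over all genes included Mmp9 (4.73), a matrix protease, of whose anti-CD40 UMIs 77.9% came from 5 barcodes, and the Ly6 family gene Ly6i (4.66), of whose UMIs 6.07% did. Of 15 genes of phagocytosis none was called. In T-macrophage barcodes of B2m-null tumours Foxp3 fell by 1.80 and Ikzf2 by 1.73.

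The calls in B2m-null tumours rest on both isotype pools. They numbered 41 without B2m-null isotype pool 1 and 50 without pool 2, which leave 232 and 144 T-macrophage barcodes in that arm. Fits without a control pool or lane enter this comparison through the shared spread. Of the genes named, Nos2, Cxcl9, Nkg7, H2-M2, Lyz1, Ccl24, Mmp9 and Ikzf2 were called in each of 8 fits that left out 1 lane. Their sizes were less steady: without B2m-null isotype pool 2 the change of Mmp9 was 11.3, against 4.21 without pool 1, and the isotype level of H2-M2 rests on 18 UMIs, 94.4% of them from 5 barcodes. Without B2m-null anti-CD40 pool 1 the change was 1.46 for Cxcl10, 3.42 for Ly6i and -1.21 for Mrc1, and without pool 2 it was -2.39 for Mrc1. Ifng, Cxcl10, Gbp2, Gbp2b, Cd8a, Cd8b1, Fasl, Gzmk, Icam1, Itgal, Itgb2, H2-K1, Psmb8, B2m, Cxcl16, Cxcr6, Tnf, Nr4a3, Mrc1, Acod1, Ly6i and Foxp3 were called in 6 of the 8, and lost their call without either B2m-null isotype pool. The T cell part of the summed RNA, given above, was lower under anti-CD40 in both tumour types, and its part in these changes was not tested.

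The difference in the anti-CD40 effect between tumour types was tested directly, over contrasts that use all 4 groups. edgeR called no gene in either direction (0% of 11779, smallest adjusted p = 0.0711), with 1872 genes at an unadjusted p under 0.05, while DESeq2 called 193. The difference, B2m-null minus control, was 1.86 (SE 0.29, edgeR adjusted p = 0.0894) on the log2 scale for Nos2 and 2.44 (SE 0.68, edgeR adjusted p = 0.173) for Ifng. It was 1.13 (edgeR adjusted p = 0.195) for Cd8a and 1.05 (edgeR adjusted p = 0.151) for Gzmb. The count was 557 without B2m-null anti-CD40 pool 2, 44 without pool 1 and 4 without control isotype pool 2. With 1 lane left out the difference was 1.67 to 2.02 for Nos2 and 1.54 to 3.10 for Ifng. It was 0.72 to 1.43 for Cd8a and 0.84 to 1.22 for Gzmb. Whether each of these genes passed depended on the pool left out. By edgeR on all pools, a difference between tumour types is therefore not shown for any of these genes at this number of pools.

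Under isotype, T-macrophage barcodes of B2m-null tumours had less Cxcl9, Gbp2b, Gzmb and Nkg7 than those of control tumours. This comparison asks what loss of B2m changed, and shares its isotype pools with the 2 comparisons above. Genes lower in B2m-null tumours numbered 13 (0.11%) and genes higher 2 (0.017%). Cxcl9 was 655 and 572 CPM in control and 170 and 280 in B2m-null tumours (log2 -1.46, edgeR adjusted p = 0.045), and Gbp2b 25.6 and 15.02 against 0.640 and 3.08 (-3.17, or -5.01 to -2.69 with 1 lane left out). Gzmb (-1.17), Nkg7 (-0.97) and the activation-induced nuclear receptor Nr4a2 (-1.16) were lower, while Ccl24 (2.16) and Fcrls (1.92), an Fc receptor-like gene, were higher. Of these genes all but Ccl24 lost their calls without control isotype pool 1. Gzmb, Nkg7 and Nr4a2 also lost theirs without control isotype pool 2, and Gbp2b without either control anti-CD40 lane. Nos2 (-1.49, edgeR adjusted p = 0.0507) and Ifng (-2.31, edgeR adjusted p = 0.126) did not pass. By edgeR 0 genes were called without either B2m-null isotype pool (894 and 1158 at an unadjusted p under 0.05), 4 without control isotype pool 1, 28 without control isotype pool 2, and 248 or 217 without either B2m-null anti-CD40 pool.

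Under anti-CD40, T-macrophage barcodes of B2m-null tumours had more Arg1. Of 20 macrophage state genes 3 were higher, Arg1, Cxcl13 and Ccl24, and none lower, beside 0 called by mouse (7 at an unadjusted p under 0.05). Over all genes, genes higher numbered 6 (0.0509%) and genes lower 10 (0.0849%). Arg1, which breaks down arginine, was 82.3 CPM in the control and 323 and 410.0 in the B2m-null anti-CD40 pools (log2 2.20), and Ass1, which rebuilds arginine, 32.7 against 130.3 and 108.5 (1.90). The B cell-attracting chemokine Cxcl13 (3.28), Ccl24 (2.52) and Fcrls (2.60) were also higher, though 51.8% of the Cxcl13 UMIs of the B2m-null anti-CD40 group came from 5 barcodes, and its difference was 2.47 without control anti-CD40 lane 1. Nos2 differed by 0.38 (edgeR adjusted p = 0.459) and Ifng by 0.13 (edgeR adjusted p = 0.936). Arg1, Ass1, Cxcl13, Ccl24 and Fcrls lost their calls without either B2m-null isotype pool, and all of these but Arg1 without control anti-CD40 lane 1. Calls over all genes numbered 4 without control anti-CD40 lane 1, 3 and 4 without either B2m-null isotype pool, and 89 and 269 without either B2m-null anti-CD40 pool.

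Genes listed as markers of further cell types moved with the groups in T-macrophage barcodes. The dendritic cell lists were also found in the single classes (means of 7 pools). Type 2 markers of conventional dendritic cells summed to 222 CPM in T-macrophage and 217 in single macrophage barcodes, and type 1 markers to 317 and 332. Mature dendritic cell markers summed to 113 CPM in T-macrophage, 260 in single T cell and 33.3 in single macrophage barcodes. Which cells carried them was not tested. Of 16 dendritic cell markers, 12 fell under anti-CD40 in control tumours (median log2 change -3.67) and 9 in B2m-null tumours (-2.31). Without control isotype pool 1 or 2 the first count was 5 and 6, and without B2m-null isotype pool 1 or 2 the second was 4 and 5. Ccr7, the lymph node homing receptor of mature dendritic cells, fell from 74.5 and 86.9 to 3.82 CPM in control and from 73.6 and 76.0 to 14.6 and 6.09 in B2m-null tumours. The chemokine Ccl22 fell by 4.78 on the log2 scale in control tumours. The lectin Cd209a fell by 4.45 in control and 4.41 in B2m-null tumours, and the growth factor receptor Flt3 by 4.21 and 5.05. With 1 lane left out Flt3 ranged from -5.51 to -3.74 in control and Cd209a from -6.75 to -3.86 in B2m-null tumours. Ccr7 had a UMI in 21.7% of T-macrophage barcodes of control isotype and 2.28% of control anti-CD40 tumours. The fall was also seen in both single classes, where Ccr7 changed by -2.79 in single T cell and -3.71 in single macrophage barcodes of control tumours, the second not called.

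Much of the neutrophil and melanoma signal came from few barcodes. S100a8 rose by 4.59, S100a9 by 3.61 and Retnlg by 5.08 on the log2 scale under anti-CD40 in control tumours, 3 of the 4 neutrophil markers. Of the S100a9 UMIs of that pool 97.3% came from 5 barcodes, and 97.9% of the Retnlg and 73.7% of the S100a8 UMIs. With 1 lane left out S100a8 ranged from 3.78 to 5.59, S100a9 from 1.91 (without anti-CD40 lane 1) to 4.17, and Retnlg from 3.73 (without isotype pool 1) to 9.22 (without isotype pool 2). Retnlg lost its call without control isotype pool 1 or anti-CD40 lane 1. The melanosome genes Dct (1.56) and Mlana (1.23) rose in control and Dct (1.57) and Mlana (1.88) in B2m-null tumours. In the control anti-CD40 pool 58.9% of Dct UMIs and 65.5% of Mlana UMIs came from 5 of 1228 barcodes, and in B2m-null anti-CD40 66.0% of Dct UMIs came from 1 barcode. Dct, Mlana and the prostaglandin synthase gene Ptgds were lower in B2m-null than in control tumours under both treatments, by -2.66, -3.07 and -3.72 under isotype and -2.65, -2.42 and -3.40 under anti-CD40. Without control anti-CD40 lane 1 the last 3 were -1.52, -1.39 and -1.88 and were not called. Without either B2m-null isotype pool all 3 lost their calls under isotype, and Dct under anti-CD40 as well, and Dct under isotype also lost it without control isotype pool 1. The rises of Dct and Mlana in control tumours lost their calls without either control isotype pool or anti-CD40 lane 1 (0.42 and 0.20 without that lane), and that of Mlana in B2m-null tumours without isotype pool 2, and that of Dct in B2m-null tumours without either isotype pool or anti-CD40 pool 2.

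Few genes were called between T-macrophage barcodes with 1 and with 2 hashtags. Those with 2 hashtags held more UMIs per barcode in each pool. In control isotype pool 1, 303 barcodes with 2 hashtags held 4473400 UMIs and 252 with 1 hashtag held 2966250. The part of this depth difference in the comparison was not tested. With the pool as a block, edgeR called 6 of 9590 genes (675 at an unadjusted p under 0.05), 2 higher with 1 hashtag (0.0209%) and 4 higher with 2 (0.0417%). AY036118 was higher with 1 hashtag in 7 of 7 pools (log2 0.94, SE 0.11, edgeR adjusted p = 0.000571). The other gene counted as higher with 1 hashtag was C1qa, which was used for the choice, so nothing is read from it. Higher with 2 hashtags were the monocyte gene Plac8 (-0.39), the chemokine Ccl6 (-0.29), Marcksl1 (-0.34) and the calcium-binding S100a6 (-0.21). Ifng differed by 0.14 (SE 0.17) and Nos2 by -0.10 (SE 0.12), with an edgeR adjusted p of 0.939 for each. Counts of calls were 2 without B2m-null anti-CD40 pool 2, 3 without control isotype pool 2, 26 without control anti-CD40 and 31 without B2m-null isotype pool 2, while AY036118 and Plac8 were called in all 7 such fits. Ccl6 was called in 4 of the 7, S100a6 in 3 and Marcksl1 in 2. With hashtags called at 3.5 SD none of the 4 genes higher with 2 hashtags passed, Plac8 included (-0.43, edgeR adjusted p = 0.0569). Several marker lists leaned to 1 side, with Plac8 the only gene called in them, beside a median of -0.0038 over all genes. All 4 fibroblast (median -0.83), all 4 mature dendritic cell (-0.43), all 4 conventional type 2 dendritic cell (-0.31) and all 5 monocyte markers (-0.17) had a fitted change toward 2 hashtags. The pools did not agree. In B2m-null isotype pool 2 all 4 fibroblast markers were higher with 1 hashtag, for example Col3a1 at 640.6 CPM against 1.10. Ccl22 was 15.5 CPM with 1 hashtag and 185 with 2 in that pool, but 57.65 and 42.92 in control isotype pool 1. Of the 12 T cell and the 12 macrophage markers not used for the choice, 11 and 10 were higher with 1 hashtag (median 0.08 and 0.05).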

How the data were processed

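Single-cell RNA and hashtag libraries of CD45-selected tumour cells were analysed from 8 lanes in 7 pools. The authors deposited raw UMI counts per gene and barcode with hashtag counts in the same matrices, and the submitters' processing notes name Cell Ranger 3.0.0, bcl2fastq 2.20.0.422 and the mm10 build. The labels name 3 hashtags, of which 2 lanes hold 3 lines and 6 lanes 2. The counts carried no normalization, and 0 columns of per-sample values were left unused.

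Barcodes were kept with 200 genes and at most 10% mitochondrial UMIs, and no doublets were removed, since T-macrophage barcodes would be among those a caller removes. The members and gene lists were chosen with earlier results of these data known. A barcode's leading hashtag came from a Gaussian mixture on log10 counts centred within the barcode. A hashtag was present with at least 20 counts and 2.5 SD (1.4826 times the median absolute deviation) above the background of barcodes led by other hashtags.

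UMI counts were summed per pool and class, scaled to a total of 1000000 (CPM) for display, and tested with edgeR 4.0.16 (quasi-likelihood, TMM, Benjamini-Hochberg) over all groups. The same test recovered fold changes set in simulated data, for which no rate of recovery or of false calls is given. Nothing is read from that simulation for genes with few UMIs or for comparisons with the control anti-CD40 group. DESeq2 1.42.0 was an alternative. Paired values over pools used exact sign-flip permutation tests, and mice exact permutation tests, all two-sided. The control anti-CD40 group is 1 pool of technical-replicate lanes, whose own variance could not be estimated, and p-values measure the spread between pools, which may be technical. Intervals are 95% Wilson intervals and cover counting error only. NK, B cell, neutrophil and melanoma barcodes were set by minimum UMIs of their markers.

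Named genes were Cd3d, Cd3e, Cd3g, Cd8a, C1qa, C1qb, C1qc, Nos2 and Ifng, the 6 highest and 6 lowest changes called in a comparison with over 3 counts in both groups, and up to 4 genes per list with the lowest adjusted p. Not all are printed. Replicate numbers did not pair the pools (correlations of deviations -0.196, 0.0924 and -0.0692). Alternatives covered scaling, filters, thresholds, thinning, hashtag rules, single mice and leaving out each pool or lane. The contrast of effects, the fits without weakly stained pools and the crossed block were added after seeing the data. Python 3.11.15, numpy 2.4.6, scipy 1.17.1, pandas 2.3.3, scikit-learn 1.9.0, matplotlib 3.10.9 and R 4.3.3 were used.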

Additional observations from a re-analysis of the deposited data

How the results depend on the processing

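Counts of called genes moved with the filter on low counts and with the pools left out. In control tumours anti-CD40 called 508 genes, 1451 without a filter on low counts, 839 by mouse and 109 to 1297 with 1 lane or pool left out. In B2m-null tumours it called 793, 1678 without the filter and 41 to 911 with 1 left out. Between tumour types under isotype 15 genes were called, 95 by DESeq2, 557 without the filter, 27 at 20 C1q UMIs, 138 by mouse and 0 to 248 with 1 left out. Under anti-CD40 the count was 16, 128 by DESeq2, 481 without the filter, 48 at 20 C1q UMIs, 155 by mouse and 3 to 269 with 1 left out. The difference of effects gave 0 by edgeR, 193 by DESeq2, 673 without the filter, 2 at 20 C1q UMIs, 257 by mouse and 0 to 557 with 1 left out. Between 1 and 2 hashtags 6 genes were called, 27 by DESeq2, 93 without the filter, 2 with hashtags at 3.5 SD and 2 to 31 with 1 pool left out (26 without control anti-CD40). The cause of these moves was not tested.

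With the replicate number as a block in 6 pools, B2m-null anti-CD40 called 614 genes against 836 without the block, and the isotype comparison 0 against 12. A crossed pairing of the isotype pools gave 4. The pools share only a number.

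The share difference in B2m-null tumours was 3.18 points by mouse (exact permutation p = 0.00794), and with 1 pool or lane left out 1.96 to 3.76, against 0.809 to 1.61 in control tumours. In control tumours it was 1.21, 0.480 at 4 CD3 UMIs and 4.66 after thinning. The ratio of observed to product was 0.315 after thinning and 0.452 to 0.504 with 1 pool left out. At 20 C1q UMIs its difference was -0.346 from B cell-macrophage and -0.320 from B cell-T cell barcodes. With 1 pool left out it was 0.102 to 0.144 over NK-macrophage (0.102 without control anti-CD40, 0.118 without control isotype pool 1) and 0.185 to 0.251 over melanoma-T cell barcodes (0.225 without control anti-CD40). These ratios are given as a description.

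The excess of 2-hashtag barcodes over single T cells was -0.309 points under the rule of 20% of counts, 32.7 without the weakly stained pools and 24.1 to 30.1 with 1 left out. Over single macrophages it was 2.86, 25.99 and 18.9 to 23.9. The CD8 share difference ranged from -0.448 to 0.310 with 1 left out. Genes above the fitted sum numbered 0 to 5 and below 2 to 6 with 1 left out, and 14 lay below at a filter of 1 CPM.

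Of 1443 values of named genes under alternatives, 1183 kept direction and side of the threshold, 218 lost a call, 32 gained one and 10 changed sign. With 1 left out, the log2 change of Ifng in control tumours ranged from -0.021 to 0.40, that of Gzmb in B2m-null tumours from -0.12 to 0.26 (-0.0095 without isotype pool 1), and that of Ifng between tumour types under anti-CD40 from -0.76 to 0.68. The last was -0.17 at 20 C1q UMIs and -0.11 by mouse. Between 1 and 2 hashtags, Nos2 ranged from -0.30 without control anti-CD40 (-0.13 without B2m-null isotype pool 1) to 0.047, and Ifng from -0.0028 to 0.36, with -0.095 at 3.5 SD and -0.042 without the weakly stained pools. None of these changes was called in the main comparisons. At 144 to 1228 T-macrophage barcodes per pool, B2m-null isotype pool 1 limits the depth most.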
